A study of Mus musculus with 6 samples.

Results

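Ankrd1, Ankrd2, Ankrd23, Csrp3, Xirp1, Xirp2, Nrap and Actc1 are 8 sarcomere and Z-disc genes of striated muscle that are known for responding to stretch and overload. They were chosen by gene symbol, and all 8 were found among the 45777 genes of the count table and among the genes with a TPM value (a transcript level scaled for length and library size). All 8 passed the filter on low counts and were among the 16188 genes tested. RNA-Seq was carried out on the tibialis anterior (TA) muscle, a fast limb muscle, of male C57BL/6J mice aged 24 months by the labels (the study's text gives a somewhat older age). The 3 vehicle mice received DMSO with Tween 80, and the 3 treated mice received BML-260, a small molecule reported to target the phosphatase DUSP22, at 5 mg/kg by daily intraperitoneal injection for 1 month. All 6 mice were geriatric, no young mice were analysed here, and each library came from the whole muscle of a single mouse.

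The muscle ankyrin repeat proteins Ankrd1, Ankrd2 and Ankrd23 bind the spring region of titin and also enter the nucleus, and their transcripts are induced when muscle is stretched or injured. Csrp3 (muscle LIM protein), Nrap and the Xin repeat proteins Xirp1 and Xirp2 link actin filaments to Z-discs and to the ends of the fiber, and Actc1 encodes cardiac alpha-actin, the main sarcomeric actin of the heart and of developing skeletal muscle. Ankrd2 and Csrp3 are known for higher levels in slow than in fast muscle.

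The libraries held 39522890 to 56998875 counts, and the raw counts of the 8 genes ran from 144 (Actc1 in vehicle replicate 3) to 436166 (Xirp2 in the same library). Vehicle replicate 3 stood apart from the other libraries. Its TMM scaling factor was 1.20, against 0.914 to 1.02 in the other 5 libraries, and it held the highest value for 32.3% and the lowest value for 31.1% of the genes tested. For this reason the fold change of each of the 8 genes, and the counts of the related lists, are given with and without it. Fast fiber markers summed to between 84781 and 105926 TPM in the 6 libraries, and the atrial marker Myl7 had 0 counts in each of them. A lower level in whole muscle can reflect fewer fibers of a type or less RNA per fiber, and these cannot be told apart here.

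On the mouse assembly GRCm38.p6, 3 of the genes are on chromosome 19: Ankrd1 (chr19:36111965-36119844, minus strand), Ankrd2 (chr19:42035917-42045111, plus strand) and Nrap (chr19:56320037-56390062, minus strand). Actc1 (chr2:114047282-114052875, minus strand) and Xirp2 (chr2:67446000-67526620, plus strand) are on chromosome 2. Ankrd23 is at chr1:36530193-36536556, Csrp3 at chr7:48830398-48848051 and Xirp1 at chr9:120013755-120023598, all on the minus strand. Other RefSeq genes overlap only Xirp2 and Nrap, and these neighbors had at most 25 counts in any library. The 250 bases before the RefSeq start are shown from 5′ to 3′ on the gene's own strand. They are given for Ankrd1, Ankrd2, Csrp3 and Actc1, the 4 genes with the widest ranges across the libraries. Csrp3 has 2 RefSeq starts, of which 1 is shown. For Ankrd2 the start used lies inside the gene span given above. Its stretch ends at base 42036026, past the first base of that span (42035917), and its motif positions are counted from the start used. Capitals mark matches on either strand to MCAT (CATTCC, the TEAD motif), the CArG box (the SRF motif), the MEF2 motif and the E-box (CANNTG, the motif of myogenic bHLH factors), and no match overlaps another in these 4 stretches.
Ankrd1, chr19:36119845-36120094: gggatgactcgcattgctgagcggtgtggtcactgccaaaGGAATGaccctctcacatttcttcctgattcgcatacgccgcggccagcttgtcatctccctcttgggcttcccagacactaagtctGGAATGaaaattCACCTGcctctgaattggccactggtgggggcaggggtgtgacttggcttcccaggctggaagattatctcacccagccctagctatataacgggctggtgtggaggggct
Ankrd2, chr19:42035777-42036026: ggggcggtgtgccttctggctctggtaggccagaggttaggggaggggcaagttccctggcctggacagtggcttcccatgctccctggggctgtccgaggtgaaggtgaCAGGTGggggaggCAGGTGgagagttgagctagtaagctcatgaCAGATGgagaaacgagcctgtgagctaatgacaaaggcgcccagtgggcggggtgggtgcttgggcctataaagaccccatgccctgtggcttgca
Csrp3, chr7:48848052-48848301: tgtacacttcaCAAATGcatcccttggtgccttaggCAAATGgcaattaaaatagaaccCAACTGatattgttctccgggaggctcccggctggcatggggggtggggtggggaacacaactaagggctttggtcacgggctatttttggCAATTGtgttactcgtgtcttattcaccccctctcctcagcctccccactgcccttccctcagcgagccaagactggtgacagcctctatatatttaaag
Actc1, chr2:114052876-114053125: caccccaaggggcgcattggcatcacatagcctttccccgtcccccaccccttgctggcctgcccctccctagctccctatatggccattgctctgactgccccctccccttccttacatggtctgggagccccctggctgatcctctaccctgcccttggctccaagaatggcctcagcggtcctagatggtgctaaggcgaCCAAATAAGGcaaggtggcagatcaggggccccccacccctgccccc

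The Ankrd1 stretch holds 2 MCAT matches, at positions -210 and -123 from the start, and 1 E-box. The Ankrd2 and Csrp3 stretches hold 3 and 4 E-boxes and no match to the other capitalised motifs, and the Actc1 stretch holds 1 CArG box at position -47. Among the 32841 RefSeq windows of 300 bases (250 before and 50 after a start), 14.7% hold MCAT, 1.63% hold a CArG box, 3.19% hold the MEF2 motif and 72.3% hold an E-box. Of the 7 genes with such a window, MCAT was found in 2 (Ankrd1 and Ankrd23), the CArG box in 1 (Actc1), the MEF2 motif in 1 (Xirp2, at position -74) and the E-box in all 7. TATAAA, which was found in 13.6% of all windows, was present in 2 (Ankrd2 at position -29 and Actc1 at position 34). Ankrd23 and Csrp3 have 2 windows each, and a match in either was counted, whereas the shares of all windows are per window. A match describes letters and was not tested as a binding site.

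To assess the effect of BML-260 on these genes, the treated and vehicle libraries were compared with edgeR's quasi-likelihood test across all genes. Ankrd1 was the 1 gene of the 8 at the volcano threshold used for this experiment, a 1.3-fold or larger difference together with an unadjusted p below 0.05, and its level was lower with BML-260. The same direction of the threshold was met by 4.86% of all genes tested, and the opposite direction by 0.896%. None of the 8 genes had an adjusted p under 0.05, as was the case for all genes (0.0% called), whereas 966 of all genes and 1 of the 8 had an unadjusted p under 0.05. DESeq2 called 82 genes at an adjusted p under 0.05, and none of these was among the 8. In 7 of the 8 genes the highest library was vehicle replicate 3, and in Actc1 the lowest library was vehicle replicate 3. The treated and vehicle libraries overlapped for all 8, whereas for 12.1% of the genes tested there was no overlap.

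**Figure D1:**
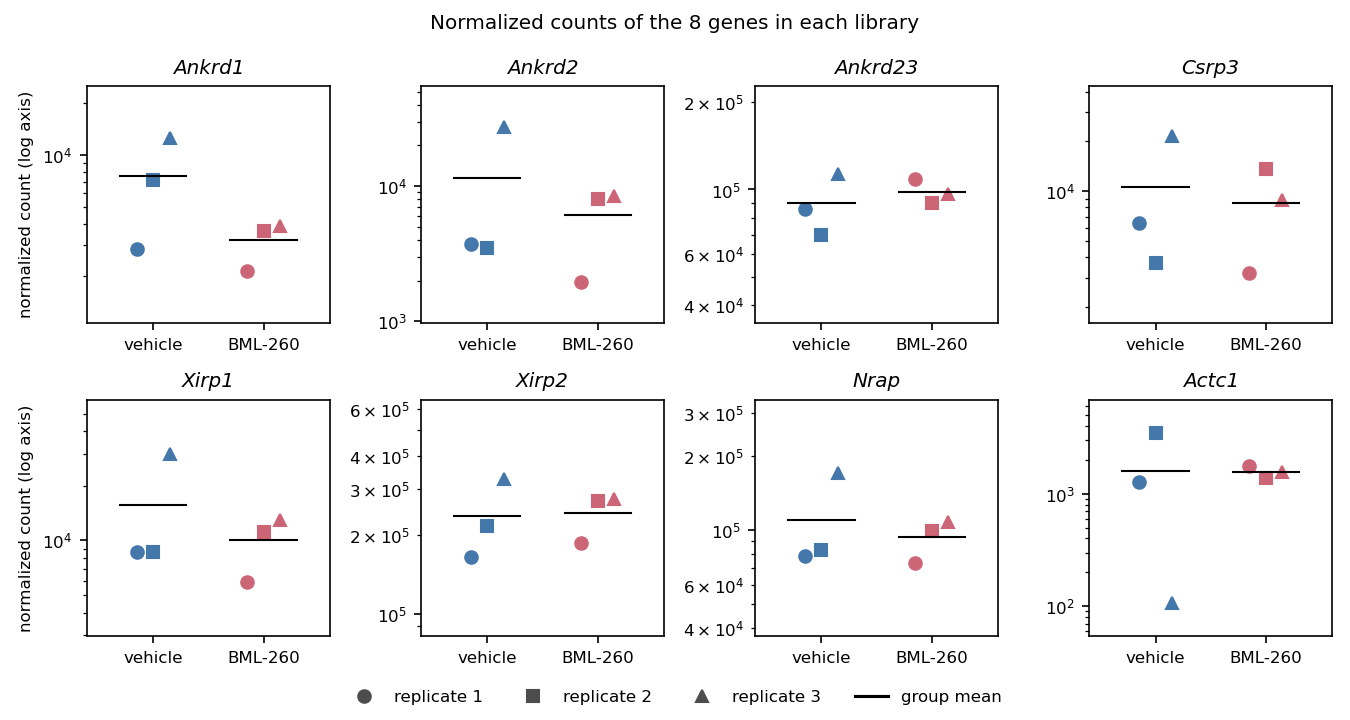
Normalized counts (counts divided by size factors, log axis) of each gene in the 3 vehicle libraries (blue) and the 3 BML-260 libraries (red), with a marker shape for each replicate number and a line at the group mean. Vehicle replicate 3 (triangle) is the highest library for 7 genes and the lowest for Actc1, at 108 normalized counts.

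Of the ankyrin repeat genes, Ankrd1 (cardiac ankyrin repeat protein) had normalized counts of 2838, 7188 and 12534 in vehicle replicates 1, 2 and 3, and of 2126, 3642 and 3865 in the BML-260 replicates. BML-260 replicates 2 and 3 were above vehicle replicate 1, and the other 2 vehicle libraries were above all BML-260 libraries. The mean was 7520.1 ± 4857 with vehicle and 3211 ± 946 with BML-260 (SD, n = 3 each). This corresponded to a log2 fold change of -1.23 ± 0.47 (SE), or 2.34-fold lower, with an unadjusted p of 0.0304 and an adjusted p of 0.788 (edgeR). Without vehicle replicate 3 the log2 fold change was -0.65 ± 0.34, with an unadjusted p of 0.0804 (edgeR). The direction was the same in all 16 alternative analyses (log2 fold change between -1.62 and -0.65), of which 9 reached the volcano threshold. It was at the threshold when vehicle replicate 1 was left out, and not when vehicle replicate 2 or 3 or any BML-260 replicate was left out (-1.39 to -0.65).

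Ankrd2 had the widest swing among the ankyrin repeat genes. Its normalized counts were 3741, 3491 and 27489 in the vehicle libraries and 1951, 7975 and 8461 in the BML-260 libraries. Vehicle replicate 3 was 7.60-fold above the mean of the other 2 vehicle libraries, a higher ratio to the remaining libraries than for 99.2% of the genes tested, and BML-260 replicate 1 was the lowest of all 6. The log2 fold change was -0.91 ± 0.83 (SE), with an adjusted p of 0.802 (edgeR). It was 0.76 ± 0.45 without vehicle replicate 3, so that the direction depended on this library.

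Ankrd23 (diabetes-related ankyrin repeat protein) was the steadiest of the 8. It had 85582, 69591 and 113335 normalized counts with vehicle, and 108406, 89738 and 96698 with BML-260. The means of 89502 ± 22134 and 98280.5 ± 9434 (SD, n = 3 each) differed by less than the spread of the vehicle libraries. The log2 fold change was 0.13 ± 0.24 (SE), with an adjusted p of 0.889 (edgeR). Without vehicle replicate 3 it was 0.33 ± 0.17, with an unadjusted p of 0.0713 (edgeR), and all 3 BML-260 libraries were then above both vehicle libraries. It was the 1 gene of the 8 without overlap in that comparison, in which 18.0% of all genes had no overlap.

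Csrp3, the muscle LIM protein gene, varied across the libraries in a manner close to Ankrd2. It had 6404, 3665 and 21594 normalized counts with vehicle, and 3208, 13570.0 and 8833 with BML-260. Vehicle replicate 3 was 4.29-fold above the mean of the other 2 vehicle libraries, and BML-260 replicate 1 was again the lowest library. The log2 fold change was -0.30 ± 0.67 (SE), with an adjusted p of 0.909 (edgeR), and it was 0.75 ± 0.45 without vehicle replicate 3.

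The Xin repeat genes differed in how far they swung. Xirp1 had 8618, 8688 and 29902 normalized counts in the vehicle libraries and 5916, 11112 and 12959 in the BML-260 libraries. Its vehicle replicate 3 was 3.46-fold above the mean of the other 2, and the log2 fold change was -0.65 ± 0.51 (SE), with an adjusted p of 0.796 (edgeR). Without that library it was 0.20 ± 0.26. Xirp2, which is much longer, had 164905, 215439 and 326317 normalized counts with vehicle, and 186262, 267845 and 274214 with BML-260. The groups were interleaved, and the log2 fold change was 0.04 ± 0.32 (SE), with an adjusted p of 0.976 (edgeR). It was 0.35 ± 0.21 without vehicle replicate 3.

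Nrap, the nebulin-related anchoring protein gene, followed Xirp2 closely. It had 78221, 82658 and 170566 normalized counts with vehicle, and 73744, 98847 and 107554 with BML-260. Vehicle replicate 3 was again the highest library and BML-260 replicate 1 the lowest. The log2 fold change was -0.24 ± 0.34 (SE), with an adjusted p of 0.858 (edgeR), and it was 0.21 ± 0.18 without vehicle replicate 3.

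Actc1 was opposite to the other 7 genes in vehicle replicate 3. It had 1273, 3439.7 and 108 normalized counts in vehicle replicates 1, 2 and 3, and 1777, 1367 and 1564 in the BML-260 libraries. Vehicle replicate 3 had 0.0457 times the mean of the other 2 vehicle libraries, and only 0.253% of the genes tested had a lower ratio of this library to the remaining 5. The vehicle libraries differed by up to 31.9-fold and the BML-260 libraries by up to 1.3-fold. The log2 fold change was -0.04 ± 0.86 (SE), with an adjusted p of 0.992 (edgeR), and it was -0.59 ± 0.31 without vehicle replicate 3, with an unadjusted p of 0.0824 (edgeR). All 8 genes spanned a wider ratio among the vehicle libraries than among the BML-260 libraries, as did 70.0% of all genes tested. Vehicle replicates 1 and 2 alone spanned a wider ratio than the 3 BML-260 libraries for only 3 of the 8 (Ankrd1, Ankrd23 and Actc1) and for 36.1% of all genes, and differed by 1.07-fold for Ankrd2 and 1.01-fold for Xirp1.

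Actc1 was also set against Acta1, the skeletal alpha-actin gene that supplies most sarcomeric actin in adult muscle. In TPM, Actc1 made up 0.129%, 0.367% and 0.0182% of the sum of both genes in the vehicle libraries, and 0.164%, 0.179% and 0.141% in the BML-260 libraries. The means were 0.171% ± 0.178 with vehicle and 0.161% ± 0.0192 with BML-260 (SD, n = 3 each), a difference of -0.0101 percentage points (two-sided exact permutation test, p = 1, where 0.1 is the smallest p that 3 against 3 can give). The difference was -0.0866 percentage points without vehicle replicate 3, 0.0876 without vehicle replicate 2 and 0.00022 without BML-260 replicate 3. Its direction thus rested on single libraries. The coding sequences of Actc1 and Acta1 share 86.2% of their 1134 bases, with a longest identical run of 29 bases. How reads matching both genes were counted is not given in the sources used here, so the low Actc1 share is uncertain.

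**Figure D2:**
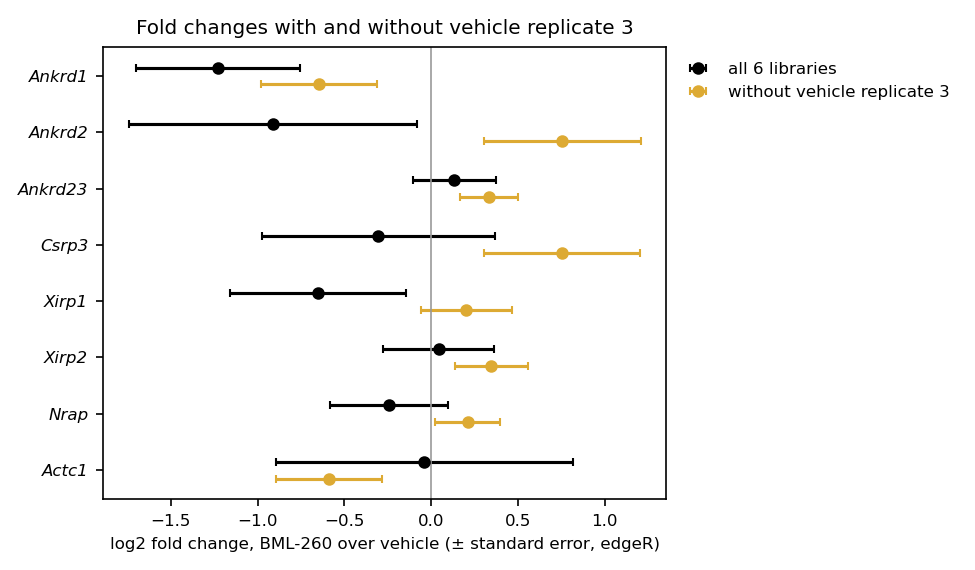
Log2 fold changes (BML-260 over vehicle, edgeR, bars are ± the standard error) of the 8 genes with all 6 libraries (black) and without vehicle replicate 3 (yellow). With all libraries 6 genes lie below 0 and 2 above, and without vehicle replicate 3 only Ankrd1 (-0.65) and Actc1 (-0.59) lie below 0.

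The median log2 fold change of the 8 genes was -0.27 with all 6 libraries, against -0.0039 for all genes tested, and 6 genes were lower and 2 higher in the treated mice. Without vehicle replicate 3 the median was 0.27, with 2 genes lower (Ankrd1 and Actc1) and 6 higher, and none of the 8 reached the volcano threshold. The direction of 4 genes (Ankrd2, Csrp3, Xirp1 and Nrap) thus turned when 1 vehicle library was left out. Ankrd1 was the single one of the 7 genes with a high vehicle replicate 3 whose estimate stayed below 0 without that library, and its vehicle replicate 2 was also above the BML-260 libraries.

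Levels were next compared between the genes in TPM, which accounts for transcript length. The median over the 6 libraries was 1463 TPM for Ankrd23, 711 for Xirp2, 584 for Nrap, 305 for Csrp3, 190 for Ankrd2, 77.1 for Ankrd1, 59.3 for Xirp1 and 36.4 for Actc1. Ankrd23 was above Xirp2, Nrap above Csrp3, and Ankrd1 above Xirp1 in 6 of 6 libraries. In BML-260 replicate 3, however, Ankrd1 and Xirp1 were nearly level (79.40 and 79.35 TPM). Csrp3 was above Ankrd2, and Ankrd2 above Ankrd1, in 5 of 6 libraries. Xirp2 and Nrap, and likewise Xirp1 and Actc1, held their order in only 4 of 6 libraries, so these neighbors were not separated beyond the spread between libraries.

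In vehicle mice the mean levels were 1579 ± 732 TPM for Ankrd23, 523 ± 571 for Csrp3, 478 ± 634 for Ankrd2 and 181 ± 150.1 for Ankrd1 (SD, n = 3). In BML-260 mice they were 1482 ± 59.8, 340.4 ± 218, 198 ± 123 and 64.3 ± 22.3 TPM in the same order (SD, n = 3). For Csrp3 and Ankrd2 the SD exceeded the mean in the vehicle group. TPM carries no scaling factor such as TMM, which was 1.20 in vehicle replicate 3, and this holds for every TPM mean and sum given here. Mean TPM was lower with BML-260 for Ankrd23 and Xirp2 (812 and 717 TPM for Xirp2). Their mean normalized counts were higher with BML-260 (89502 and 98280.5 for Ankrd23, 235554 and 242773 for Xirp2). The 8 genes together summed to 2817, 2647 and 8268 TPM in the vehicle libraries and to 2731, 3871 and 3901 TPM in the BML-260 libraries. They took 1.80% of all counts in vehicle replicate 3, and 0.771% to 1.06% in the other libraries.

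**Figure D3:**
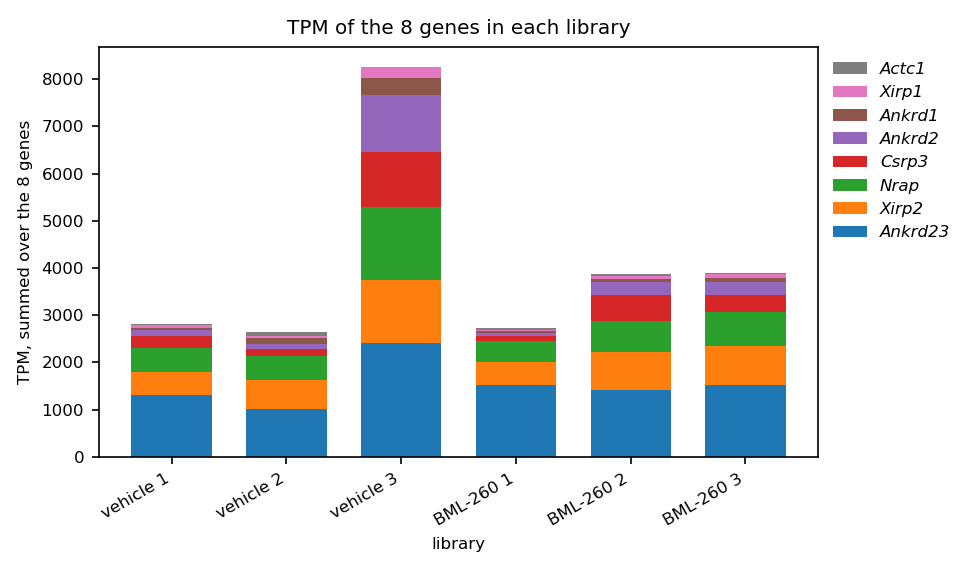
TPM of the 8 genes stacked for each of the 6 libraries, with 1 color for each gene. Vehicle replicate 3 reaches 8268 TPM and the other 5 libraries lie between 2647 and 3901 TPM, and the ankyrin repeat gene Ankrd23 is the largest segment in every library.

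The make-up of this sum also differed between libraries. Ankrd23 made up 46.6%, 38.5% and 29.1% of it in the vehicle libraries and 55.4%, 36.5% and 39.0% in the BML-260 libraries. Ankrd2 made up 4.22%, 3.99% and 14.6% with vehicle and 2.06%, 6.73% and 7.07% with BML-260. Its share was highest, and that of Ankrd23 lowest, in vehicle replicate 3. The TPM ratio of Ankrd2 to Ankrd1 was 2.09, 0.770 and 3.48 in the vehicle libraries and 1.45, 3.48 and 3.47 in the BML-260 libraries, so that the groups overlapped.

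The likeness of patterns was described by the root mean square difference of log2 CPM (counts scaled to a common library size) after each gene's own mean over the 6 libraries was subtracted. Among the 8 genes, Xirp2 and Nrap were the closest pair (0.18 log2 units), followed by Xirp1 with Nrap (0.33) and Ankrd23 with Xirp2 (0.33). Ankrd2 was closest to Csrp3 (0.44), and Ankrd1 to Xirp1 (0.49). Actc1 was at least 1.73 log2 units from each of the others. These distances rest on 6 libraries, of which vehicle replicate 3 contributed the largest deviations for most of the genes.

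Among the 16188 genes tested, those nearest to Ankrd1 were Tnnt2 (the cardiac troponin T gene, 0.16), Myom3 (an M-band protein gene, 0.19) and Fgfr3 (0.23). Tnnt2 had 42.9, 111 and 159 normalized counts with vehicle and 32.0, 43.0 and 48.9 with BML-260. The genes nearest to Nrap were Stxbp6 (0.055), Nebl, which encodes the nebulin relative nebulette (0.056), and Gucd1 (0.069). Cnp, Mindy4 and Alg12 were nearest to Ankrd23, and Ube4a, Plxnb1 and the pseudogene Rps6-ps1 to Xirp2. Stra6, Nipal1 and Nek2 were nearest to Xirp1, Snhg11, Grik3 and Adamts4 to Ankrd2, and Tent5b, Elovl4 and Ccdc39 to Csrp3. These last 9 genes were at lower counts than the genes they resembled. The genes nearest to Actc1 were Klra9 (0.28), Vmn2r57 (0.36) and Foxo6os (0.37). Klra9, a gene of the variable Ly49 receptor family, had 0 counts in vehicle replicate 3 and between 20.0 and 39.4 normalized counts in each of the other 5 libraries. Vmn2r57, a pheromone receptor gene, likewise had 0 counts there and between 16.4 and 26.7 normalized counts in the others. The labels give the same strain for all 6 mice, and whether the mouse of vehicle replicate 3 differed from the others in origin was not tested, which bears on every vehicle mean given here.

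The other genes of the same structures were then examined. Of 26 titin and Z-disc partner genes, all tested, 1 was at the volcano threshold in the lower direction and none in the higher, against 4.86% and 0.896% of all genes, and their median log2 fold change was 0.08. The 1 gene was Myoz2, which encodes the slow fiber calsarcin at the Z-disc. It had 31.1, 27.0 and 512 TPM with vehicle and 22.9, 41.0 and 36.9 TPM with BML-260, with a log2 fold change of -2.09 and an adjusted p of 0.788 (edgeR). Without vehicle replicate 3 its log2 fold change was 0.18, and none of the 26 was at the threshold. Capn3, the muscle calpain gene, was at 0.43 and the Z-disc LIM gene Fhl2 at -0.94 on the log2 fold change scale (0.26 and -0.49 without vehicle replicate 3), with adjusted p-values of 0.788 for both (edgeR).

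Of 8 near relatives (Csrp1, Csrp2, Acta1, Acta2, Actg2, Neb, Nebl and Lasp1), none was at the volcano threshold with or without vehicle replicate 3, and the median log2 fold change was -0.19 with it and 0.04 without it. Csrp1, which is broadly expressed, had the smallest p of these, with a log2 fold change of -0.34 (adjusted p = 0.788, edgeR), or -0.16 without vehicle replicate 3. Csrp2 followed, with -0.38 and 0.02. Acta1 had 23787, 21568 and 19795 TPM with vehicle and 23739, 18967 and 27542 TPM with BML-260. Its lowest vehicle library was thus vehicle replicate 3, but the deviation was far smaller than that of Actc1.

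Of 14 genes of the YAP-TEAD and MRTF-SRF pathways, through which cells transcribe in response to mechanical load, 3 were at the volcano threshold in the lower direction (Ccn2, Vgll2 and Fos) and none in the higher, against 4.86% and 0.896% of all genes, and none had an adjusted p under 0.05. Ccn2, a YAP target encoding a matrix signaling protein, had 9.21, 8.64 and 31.8 TPM with vehicle and 7.26, 7.46 and 7.53 TPM with BML-260. All its vehicle libraries were above its BML-260 libraries (12.1% of all genes did not overlap), with a log2 fold change of -0.87 (adjusted p = 0.788, edgeR). The immediate early gene Fos had 5.47, 7.97 and 82.5 TPM with vehicle and 2.96, 3.05 and 10.2 TPM with BML-260. Without vehicle replicate 3 none of the 14 was at the threshold (2.92% of all genes lower and 1.06% higher), and the log2 fold changes were -0.28 for Ccn2, -0.34 for Vgll2 and -0.37 for Fos.

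Because Ankrd2 and Csrp3 are known for higher levels in slow muscle, fiber type markers were set beside the 8 genes. Slow fiber markers (7 genes, all tested) summed to 78.0, 83.7 and 652 TPM in the vehicle libraries and to 76.1, 166 and 107 TPM in the BML-260 libraries, and 6 of the 7 were highest in vehicle replicate 3. Myl2, the slow myosin light chain gene, had 2.89, 3.59 and 423 TPM with vehicle and 11.6, 46.7 and 31.0 TPM with BML-260. Myh7, the slow myosin heavy chain gene, had 0.278, 0.355 and 25.4 TPM with vehicle and 1.96, 3.42 and 2.38 TPM with BML-260. Both were chosen after their values were seen. The raw counts in vehicle replicates 1 and 2 were 61 and 56 for Myl2, and 53 and 53 for Myh7. In both genes, all 3 BML-260 libraries were above vehicle replicates 1 and 2, and vehicle replicate 3 was above all others. Without vehicle replicate 3, 18.0% of all genes had no overlap in either direction. Ankrd2 and Csrp3 differed from them in BML-260 replicate 1, which was their lowest library, and Tnni1, Atp2a2 and Myl3 did not follow this order of libraries. With all libraries 2 of the 7 were at the volcano threshold in the lower direction (Atp2a2 and Tnni1; 4.86% of all genes), whereas without vehicle replicate 3 there were 1 lower (Atp2a2) and 4 higher (Myh7, Myl2, Tnnc1 and Tnnt1), against 2.92% and 1.06% of all genes. Fast fiber markers (8 genes) had none at the threshold with or without vehicle replicate 3, and 7 of the 8 were lowest in that library. The smallest p-values among them were those of Myh4, the fast myosin heavy chain gene (log2 fold change 0.48, and 0.24 without vehicle replicate 3), and of the calcium buffer gene Pvalb (0.66 and 0.20). The part of fiber type in the levels of the 8 genes was not tested.

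**Figure D4:**
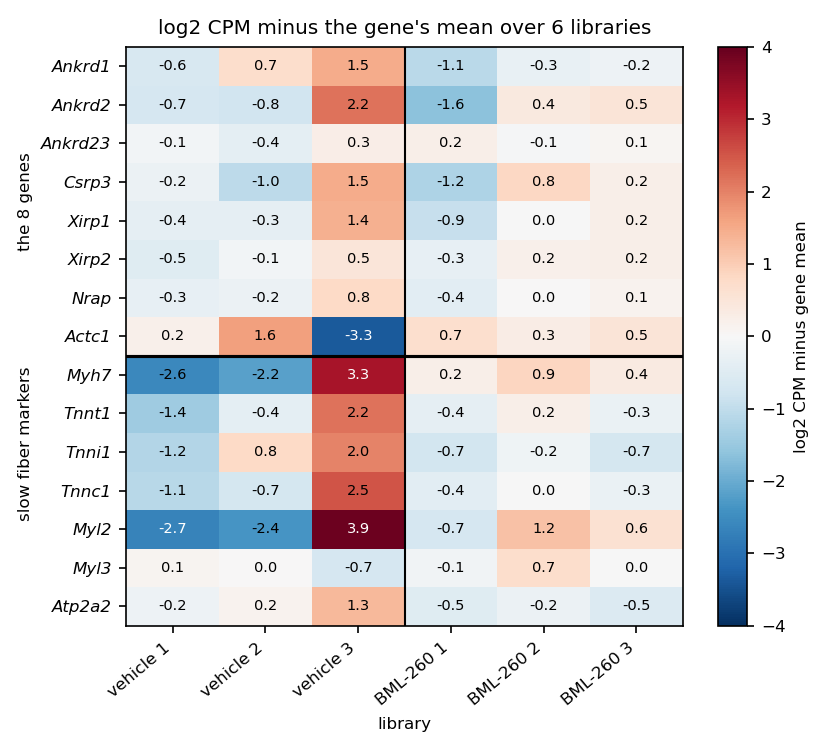
Log2 CPM minus each gene's mean over the 6 libraries, for the 8 genes (upper rows) and 7 slow fiber markers (lower rows), with libraries in columns and red for above and blue for below the mean. Vehicle replicate 3 is red for 7 of the 8 genes and for 6 of the 7 markers, and is blue for Actc1 and Myl3.

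Markers of other muscle states and cells were also examined. These lists and those above were chosen with earlier results of these data known. Their counts beside the shares of all genes are therefore a description and not a test. Of 8 denervation markers, 5 were at the volcano threshold in the lower direction with all libraries and 7 without vehicle replicate 3, against 4.86% and 2.92% of all genes, and the median log2 fold change was -1.60 and -1.66. Runx1, a transcription factor gene induced by denervation, had 3.26, 10.2 and 11.0 TPM with vehicle and 1.17, 0.979 and 1.39 TPM with BML-260. Gadd45a, an atrophy-associated stress gene, had 55.4, 134 and 204 TPM with vehicle and 20.2, 34.1 and 30.4 TPM with BML-260. Of 6 tested regeneration markers 3 were at the threshold, all lower (Myh3, Myog and Myod1), against 4.86% of all genes. Without vehicle replicate 3 there were 4 of 7, against 2.92% of all genes, with Mymk as the added gene. Mymk had only 19 and 22 counts in vehicle replicates 1 and 2, and 11, 0 and 0 with BML-260. It passed the filter only without vehicle replicate 3, through its vehicle libraries, so its lower call is not read as a result. Of 6 macrophage markers 5 were lower at the threshold with or without vehicle replicate 3 (4.86% and 2.92% of all genes). The other, Cd68, had a log2 fold change of 0.0018, and of 0.39 without vehicle replicate 3. The summed level of the 6 was 97.1 to 407 TPM with vehicle and 62.2 to 79.4 TPM with BML-260. Lyz2 made up most of it, with 74.0, 78.8 and 354 TPM with vehicle and 52.4, 45.0 and 58.9 TPM with BML-260. The macrophage genes Adgre1 and Csf1r had the smallest p-values of that list, with log2 fold changes of -1.08 and -0.86 (-1.05 and -0.61 without vehicle replicate 3). None of these genes had an adjusted p under 0.05 (edgeR). Of 8 cardiac markers only 3 passed the filter (Tnnt2, Ryr2 and Myh6), all highest in vehicle replicate 3, where they summed to 8.35 TPM, and Actc1 was lowest in that library. Tnnt2 was at the threshold with all libraries and none of the 3 without vehicle replicate 3. None of 5 smooth muscle markers was at the threshold in either comparison, where Cnn1 was at -0.95 and Tagln at -0.30 on the log2 fold change scale with all libraries, and at -0.71 and 0.22 without vehicle replicate 3. The part of these cells and states in the levels of the 8 genes was not tested.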

How the data were processed

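The authors sequenced stranded total RNA libraries from 6 TA muscles. The submitters' processing notes name mm10, StringTie 2.1.3b, Bowtie2 2.3.4.1, Trimmomatic 0.38 and HISAT2 2.1.0. The authors deposited raw counts per gene for all libraries, and TPM values per library for genes with at least 1 count in every library. The strand setting and the treatment of multi-mapped reads are not given in the sources used here.

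Low counts were filtered by filterByExpr given the groups, libraries were scaled by TMM, and genes were tested with the quasi-likelihood F-test of edgeR 4.0.16 (R 4.3.3), with Benjamini-Hochberg adjustment over all 16188 genes. A standard error is the size of the log2 fold change divided by the square root of F. Normalized counts are counts divided by DESeq2 1.42.0 size factors. TPM were tested only as an alternative, in limma 3.58.1 on log2(TPM + pseudocount). Log2 CPM used a prior count of 2. The fit was tested on simulated counts from these libraries with 200 changed genes: 52 were recovered at a log2 change of 1, with 11 wrong calls, and 149 at a log2 change of 2, with 6 wrong calls. The simulated counts varied independently between genes. No simulated library thus stood apart across many genes as vehicle replicate 3 does, and recovery in its presence was not tested. Libraries are single mice of a group. The p-values set the group difference against the variation between mice, which was estimated with information shared across genes.

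The named genes are the 8 genes and 2 to 4 genes of each related list by smallest p. The 3 genes with a curated name nearest to each of the 8 are also named. Further list members that a count or comparison turns on are Acta1, Myl7, Mymk, Cd68, Lyz2 and slow fiber markers. These were chosen after their values were seen. The 8 genes and the lists were chosen with earlier results of these data known. Gene positions, promoter windows and overlaps are from RefSeq on GRCm38.p6, of which mm10 is the name at UCSC, and coding sequences are from GENCODE transcripts of that assembly. A promoter window was found for 7 of the 8 genes. Protein sequences were not used here.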

Additional observations from a re-analysis of the deposited data

How the results depend on the processing

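Of the 8 genes, Ankrd1 kept its direction in all 16 alternatives, and none of the 8 had an adjusted p under 0.05 in any of them. Leaving out 1 library at a time placed 0 to 1 of the 8 genes at the volcano threshold, made 0 to 1 non-overlapping, and gave a median log2 fold change between -0.56 and 0.27, where only the fit without vehicle replicate 3 was above 0. Over all genes it gave 503 to 2223 genes at the volcano threshold and 0 to 9 with an adjusted p under 0.05. The number of genes with an adjusted p under 0.05 was 1 without a filter, 1 with at least 10 counts in every library, 1 with voom quality weights, 1 with the robust test and 82 with DESeq2. The number at the volcano threshold was 1416 without a filter and 446 on log2 TPM with a pseudocount of 1. In the fits to TPM with either pseudocount (1 or 0.1), 0 of the 8 genes were at the threshold, Xirp2 had a log2 fold change of -0.075 with both, and Actc1 had 0.75 and 0.84. With voom quality weights the log2 fold changes of Ankrd2, Csrp3 and Nrap were 0.14, 0.39 and 0.071, and the median of the 8 was 0.11. The single-library ranges of genes that changed sign were -0.59 to 1.19 for Actc1, -1.34 to 0.76 for Ankrd2, -0.015 to 0.33 for Ankrd23, -0.80 to 0.75 for Csrp3, -0.94 to 0.20 for Xirp1, -0.16 to 0.35 for Xirp2 and -0.43 to 0.21 for Nrap. The cause of these differences was not tested beyond the libraries left out. Leaving out 1 library moved the summed TPM of the 8 genes (BML-260 minus vehicle) from -1076 to between -2041 and 769, the last without vehicle replicate 3.

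With the replicate number as a block, the log2 fold change of Actc1 was 0.83 in place of -0.04, that of Ankrd1 was -1.03, and 1 of the 8 genes and 1057 of all genes were at the volcano threshold. The labels do not say what a shared number marks. Deviations of same-numbered libraries correlated across genes at 0.16, 0.054 and 0.11, each the highest value for its number. These values are small and not independent, because deviations were taken from the mean of each group of 3. Whether same-numbered libraries were paired was not tested. The counts for the related gene lists without vehicle replicate 3 were chosen after seeing the data. The 3 libraries of each group limit the precision, whereas counts do not, apart from the 144 counts of Actc1 in vehicle replicate 3.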
